A study of Homo sapiens with 4 samples.

Results

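A set of 42 genes of double-strand break repair by homologous recombination, of the Fanconi anaemia pathway and of the DNA damage checkpoint kinases were examined in pancreatic cancer cells given LY101-4B, which the series names as an E2F inhibitor. They were chosen by function, with earlier results of these data known. Of the 42, 37 had a probe set annotated to that gene alone, out of 18417 genes with such a probe set in the table. BRCA2, FANCA, FANCD2, RBBP8 and RAD51D are not analysed here. MiaPaCa2 is an established line from a human pancreatic carcinoma, and both groups are cultures of this line. The vehicle group (2 arrays) received vehicle, whose composition the labels do not give, and the treated group (2 arrays) received LY101-4B at 50 µM, each for 24 h. The treatment protocol of the same samples names LY101-4D at 25 µM instead, and the titles, agent labels and design text were followed. The samples of a group are called biological replicates, but nothing says that they came from separate cultures, so p-values measure only the spread between these samples.

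Homologous recombination repairs a double-strand break by copying the sister chromatid. The MRN complex and the nucleases EXO1 and CtIP cut back the ends, and BRCA1, PALB2 and BRCA2, helped by mediator proteins, then prepare the ends for strand invasion. BLM and its partners, or the MUS81 nuclease, separate the joined strands. The Fanconi core ligase attaches ubiquitin to FANCI and FANCD2 at DNA crosslinks, and ATM and ATR signal damage through CHEK2 and CHEK1. Many of these genes are transcribed mainly in S and G2 phase, and several are known E2F targets.

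Of the 37 genes, 26 fell with LY101-4B, 1 rose and 10 did not pass the test. The test was limma's moderated test of LY101-4B minus vehicle on log2 values, with p-values adjusted over 21214 probe sets and a threshold of 0.05. Of all probe sets tested, 10.5% were called lower and 9.10% higher. The middle value of the 37 differences was -0.91 log2 units (1.88-fold lower), and the median over all 18417 genes was 0.005. In bulk RNA, fewer cells of a type, such as dividing cells, and less RNA per cell cannot be told apart. The largest falls were those of the exonuclease gene EXO1 (4.30-fold) and of RAD51AP1, a strand pairing factor (4.16-fold), which took the 19th and 23rd lowest places among all genes. At least 2-fold lower were 15 genes (15 of 37, against 1.62% of probe sets called lower by that much), with limma adjusted p from 0.00043 to 0.00833. In 31 of the 37 genes both treated arrays lay below both vehicle arrays, as in 29.5% of probe sets. Only the damage kinase gene ATM rose.

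**Figure D1:**
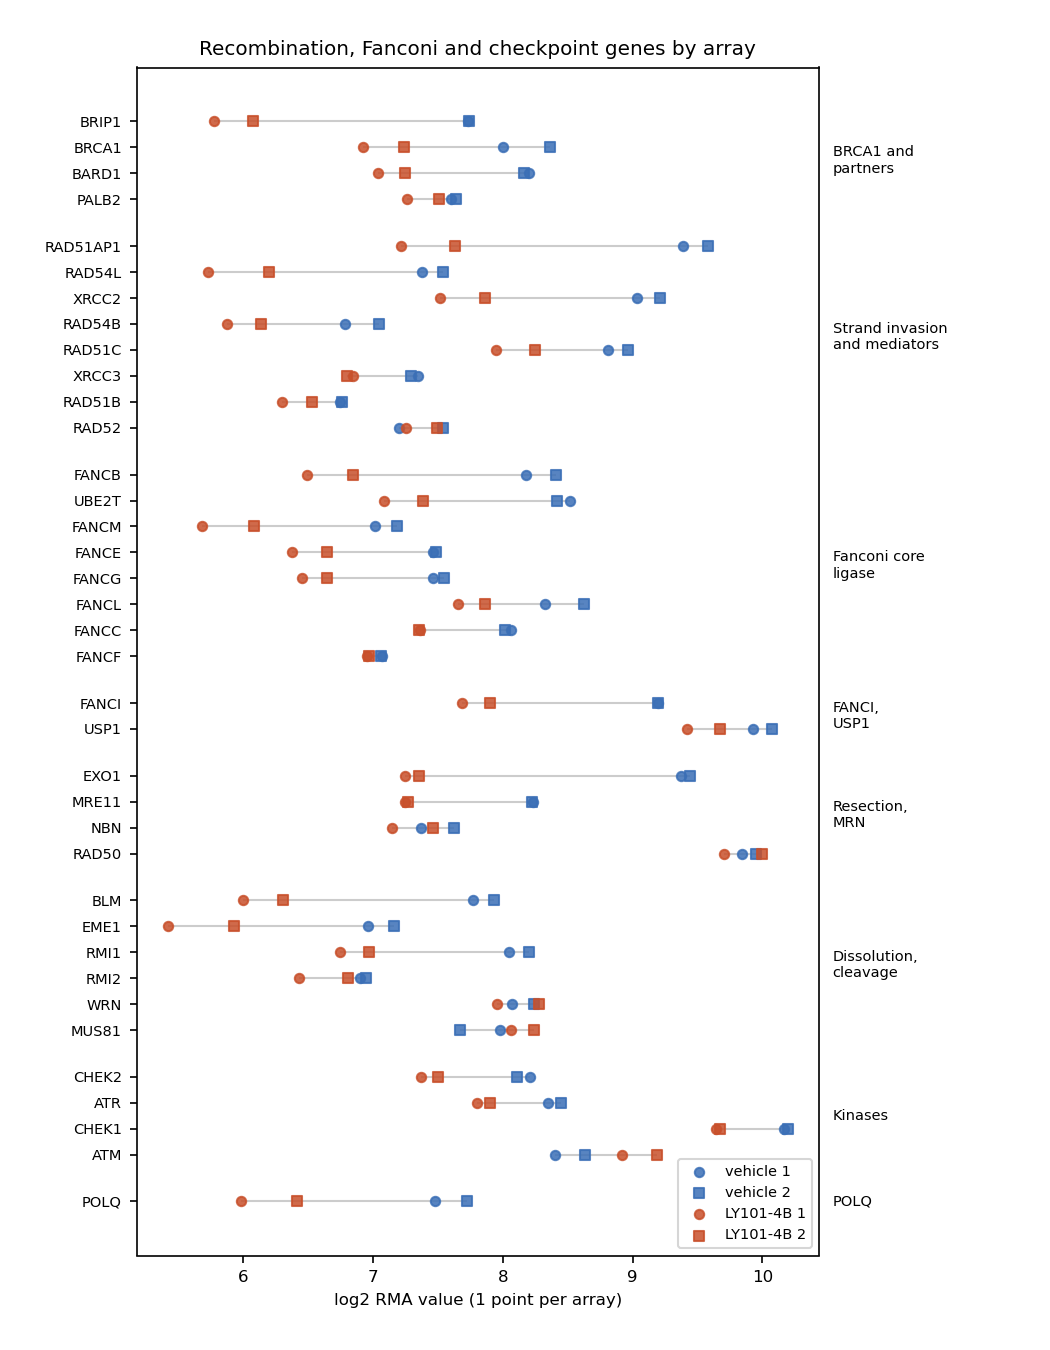
Log2 RMA value (x axis) of each of the 37 genes (rows, grouped by role) on each array, with 1 point per array, vehicle in blue and LY101-4B in orange, circles for replicate 1 and squares for replicate 2; the grey line joins the lowest and highest array. The orange points lie left of the blue points for 31 genes, and right of them for ATM and MUS81.

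Short stretches of promoter are shown for the genes whose window held the motif of E2F, the factor family named in the series title. Windows reach from 250 bases before to 50 after an annotated start (RefSeq, build GRCh38.p14), and 32 of the 37 genes had at least 1. An E2F-type motif was taken as TTTCGCGC, TTTGGCGC, TTTCCCGC or TTTGCCGC on either strand. It was found in 4 of the 32 genes (12.5%), against 3.99% of 27305 genes and 3.31% of all 35116 windows. The 4 genes are EXO1, RMI1, XRCC2 and FANCC, and all 4 fell. The matches of EXO1 and XRCC2 begin 4 and 21 bases past an annotated start, and those of RMI1 and FANCC begin before it. The stretches of EXO1 and XRCC2 were cut short past the start. All matches are given 5′ to 3′ in the direction of transcription, with the motif in capitals.
EXO1, chr1:241848188-241848233, plus strand: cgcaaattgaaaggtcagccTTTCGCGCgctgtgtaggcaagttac
RMI1, chr9:83980753-83980800, plus strand: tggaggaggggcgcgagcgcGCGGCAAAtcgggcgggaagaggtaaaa
XRCC2, chr7:152676112-152676140, minus strand: gttggtgaatggcgttggtgGCGGGAAAg
FANCC, chr9:95317854-95317901, minus strand: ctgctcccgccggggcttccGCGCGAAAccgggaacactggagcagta
FANCC has another match, chr9:95317728-95317775, minus strand: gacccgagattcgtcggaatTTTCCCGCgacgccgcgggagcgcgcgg

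The motif, taken as those exact letters, was thus found in few of the genes that fell. Other E2F-like sequences were not searched for, and the background windows were not matched for base content. The 4 genes with the motif had a median difference of -1.35 log2 units and ranged from -2.10 (EXO1) to -0.68 (FANCC). The median was -0.88 in the 28 without, of which 20 fell. These medians were not tested against each other. With TTTCGCGC and TTTGGCGC alone, 2 genes matched, EXO1 and FANCC. The CHR-type motif of genes that peak in G2 and mitosis, TTTGAA or TTCGAA on either strand, was found in 6 of the 32 genes (18.8%, against 19.5% of all genes). These 6 were BRIP1, POLQ, UBE2T, FANCC and USP1, which lay lower, and ATM, which rose. USP1 did not pass the test. Their median of -0.96 equalled that of the 26 genes without the motif. A match in the promoter window of ATM, the gene that rose, is shown beside a match of POLQ, which fell. The POLQ match begins 3 bases past an annotated start, and the ATM match begins before it.
ATM, chr11:108223027-108223072, plus strand: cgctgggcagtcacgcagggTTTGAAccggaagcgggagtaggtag
POLQ, chr3:121545960-121546005, minus strand: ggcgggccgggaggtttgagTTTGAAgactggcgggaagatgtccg

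BRCA1 and its partners fell in 3 of 4 cases, with a median of -1.07 log2 units. BRCA1, a ubiquitin ligase subunit that directs repair towards recombination, read 8.00 and 8.36 log2 units on the vehicle arrays and 6.93 and 7.24 on the LY101-4B arrays, a difference of -1.10 ± 0.16 (SE; limma adjusted p 0.00833). Its obligate partner BARD1 read 8.20 and 8.17 in vehicle and 7.04 and 7.24 with LY101-4B, a difference of -1.04 ± 0.10 (limma adjusted p 0.00243). The changes of the 2 partners differed by -0.06 log2 units. Their gap varied more than this between the vehicle arrays (SD 0.28) and between the LY101-4B arrays (SD 0.08), so equal falls were not established. BRIP1, the helicase that binds BRCA1, fell further, from 7.73 and 7.74 to 5.77 and 6.07, or 3.51-fold (limma adjusted p 0.000958). PALB2, the bridge from BRCA1 to BRCA2, differed by -0.24 log2 units (95% interval -0.52 to 0.04; limma adjusted p 0.21) and did not pass, although its groups did not overlap.

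Among the genes of strand invasion and its mediators, 6 of 8 fell, with a median of -0.85 log2 units. RAD51AP1 read 9.39 and 9.58 in vehicle and 7.22 and 7.63 with LY101-4B (difference -2.06 ± 0.16, SE; limma adjusted p 0.00134). RAD54L, a motor protein that moves DNA during strand invasion, read 7.38 and 7.54 in vehicle and 5.73 and 6.20 with LY101-4B, a 2.82-fold fall (limma adjusted p 0.00355). XRCC2, a subunit of a mediator complex, read 9.04 and 9.21 in vehicle and 7.52 and 7.87 with LY101-4B, a 2.70-fold fall (limma adjusted p 0.00243). For these 3 genes the gap between groups was several times that between the treated arrays.

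The remaining members of the group changed less. RAD54B, the relative of RAD54L, fell 1.88-fold, RAD51C fell 1.73-fold and XRCC3 fell 1.41-fold (limma adjusted p 0.00862, 0.0114 and 0.0135). The call for RAD51C was lost without vehicle replicate 2 (adjusted p 0.0637), and that for XRCC3 without vehicle replicate 1 (0.119) or 2 (0.0883). RAD51B lay lower by -0.34 log2 units (95% interval -0.60 to -0.07) at an adjusted p of 0.0843. RAD52, an annealing protein with a backup role in human cells, had overlapping groups (7.20 and 7.54 against 7.26 and 7.49) and a difference of 0.01, with a 95% interval of -0.36 to 0.37. Its sign turned to -0.06 when arrays were centred on their medians. The mediators work as complexes of RAD51B, RAD51C, RAD51D and XRCC2 or of RAD51C and XRCC3. Within the first, the changes of XRCC2 and RAD51B differed by -1.10 log2 units, and the groups did not overlap in this gap.

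The Fanconi core ligase and its conjugating enzyme fell in 7 of 8 cases, with a median of -0.96 log2 units. FANCB, of the catalytic module, read 8.18 and 8.41 in vehicle and 6.49 and 6.84 with LY101-4B, a 3.08-fold fall (-1.62 ± 0.15, SE; limma adjusted p 0.00201). UBE2T, the conjugating enzyme that works with the ligase, read 8.52 and 8.42 in vehicle and 7.09 and 7.39 with LY101-4B, a 2.35-fold fall (limma adjusted p 0.00266). FANCM, the translocase that anchors the core complex to DNA, read 7.01 and 7.19 in vehicle and 5.68 and 6.08 with LY101-4B, a 2.33-fold fall (limma adjusted p 0.00501). In each of these genes all treated values lay below all vehicle values.

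The other core subunits fell by less than 2-fold. FANCE (1.95-fold) and FANCC (-0.68 log2 units) belong to the module that binds the substrate, FANCG (1.95-fold) is a scaffold subunit and FANCL (1.64-fold) carries the ligase activity, with limma adjusted p from 0.00319 to 0.018. FANCL lost its call without vehicle replicate 2 (adjusted p 0.093), without LY101-4B replicate 1 (0.0739) and over all rows of the table (0.0656). FANCF, the adaptor between FANCM and the other subunits, read 7.07 and 7.06 against 6.95 and 6.97 and did not pass (-0.10, 95% interval -0.31 to 0.10). Its interval does not reach the change of FANCE or FANCC, its partners in the same module, and the gaps between FANCF and each of them did not overlap between the groups.

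FANCI, which the core ligase modifies together with FANCD2, fell from 9.19 and 9.20 log2 units in vehicle to 7.69 and 7.90 with LY101-4B, or 2.64-fold (-1.40 ± 0.10, SE; limma adjusted p 0.0012). USP1, which removes the ubiquitin again, read 9.93 and 10.1 in vehicle and 9.42 and 9.68 with LY101-4B. Its difference of -0.45 ± 0.12 missed the threshold by little (limma adjusted p 0.0504; 95% interval -0.75 to -0.16). It passed under 6 alternatives, among them median centring (adjusted p 0.0349) and the fit without LY101-4B replicate 2 (0.0322).

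End resection separated into genes that fell and genes that did not pass. EXO1, the exonuclease of long-range resection, read 9.37 and 9.44 in vehicle and 7.25 and 7.36 with LY101-4B (-2.10 ± 0.09, SE; limma adjusted p 0.00043). MRE11, the nuclease of the MRN complex, read 8.23 and 8.22 in vehicle and 7.25 and 7.27 with LY101-4B, a 1.96-fold fall (limma adjusted p 0.00177). Its partners did not follow: RAD50, the tether of the complex, read 9.84 and 9.95 against 9.70 and 9.99 (-0.05, 95% interval -0.36 to 0.26). NBN, which recruits ATM, read 7.37 and 7.62 against 7.14 and 7.47 (-0.19, 95% interval -0.55 to 0.17). The change of MRE11 differed from that of RAD50 by -0.92 log2 units and from that of NBN by -0.78, and neither gap overlapped between the groups. The sign of RAD50 turned under cyclic loess (0.03) and without some arrays.

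Genes that take joined DNA strands apart fell in 3 of 6 cases. BLM, the RecQ helicase of the dissolution complex, read 7.77 and 7.94 in vehicle and 5.996 and 6.31 with LY101-4B, a 3.25-fold fall (-1.70 ± 0.13, SE; limma adjusted p 0.00137). RMI1, its scaffold, read 8.05 and 8.20 in vehicle and 6.75 and 6.97 with LY101-4B, a 2.40-fold fall (limma adjusted p 0.00199). EME1, the regulatory partner of the MUS81 nuclease, read 6.96 and 7.16 in vehicle and 5.42 and 5.93 with LY101-4B, a 2.62-fold fall (limma adjusted p 0.00563). On both treated arrays EME1 lay below the median of the array (5.97 and 5.94), and no detection call was used.

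The other genes of this group, RMI2, WRN and MUS81, did not pass. RMI2 read 6.90 and 6.95 against 6.43 and 6.81 (-0.30, 95% interval -0.65 to 0.04), and passed without LY101-4B replicate 2 (adjusted p 0.0318). WRN, a RecQ helicase like BLM, read 8.07 and 8.24 against 7.95 and 8.28 (-0.04, 95% interval -0.38 to 0.30). The changes of BLM and WRN differed by -1.66 log2 units. Of the RecQ helicases among the recombination partners, RECQL (0.07), RECQL4 (-0.16) and RECQL5 (0.14) did not pass either. MUS81 read 7.98 and 7.67 in vehicle and 8.06 and 8.24 with LY101-4B (0.33, 95% interval -0.005 to 0.66; limma adjusted p 0.16). The changes of the 2 subunits of the MUS81 nuclease differed by 1.72 log2 units, and their gap did not overlap between the groups. The fall of EME1 (-1.39) made up most of this, and a rise of MUS81 was not established. POLQ, the polymerase of theta-mediated end joining that works when recombination is lacking, read 7.48 and 7.73 in vehicle and 5.99 and 6.41 with LY101-4B, a 2.65-fold fall (limma adjusted p 0.00422).

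The checkpoint kinases went in both directions. ATM, activated by double-strand breaks, read 8.41 and 8.63 in vehicle and 8.92 and 9.19 with LY101-4B, a 1.45-fold rise (0.54 ± 0.13, SE; limma adjusted p 0.0408). CHEK2, the effector kinase of ATM, read 8.21 and 8.11 in vehicle and 7.37 and 7.50 with LY101-4B, a 1.65-fold fall (limma adjusted p 0.00583). ATR, activated by single-stranded DNA at stalled forks, read 8.35 and 8.45 in vehicle and 7.80 and 7.91 with LY101-4B, a 1.46-fold fall (limma adjusted p 0.0131). The effector of ATR, CHEK1, read 10.2 on both vehicle arrays and 9.64 and 9.68 with LY101-4B, a 1.44-fold fall (limma adjusted p 0.0108). No pair of groups overlapped. The changes of ATR and CHEK1 differed by -0.02 log2 units. Their gap varied more than this within each group (SD 0.05), so equal falls were not established. The changes of ATM and CHEK2 differed by 1.26 log2 units.

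Some kinase calls were lost when an array was left out. The limma adjusted p of ATM rose to 0.216 when vehicle replicate 1 was left out, to 0.0755 for vehicle replicate 2 and to 0.101 for LY101-4B replicate 2, and it also missed the threshold with median centring (0.0618) and over all rows of the table (0.111). ATR lost its call when either vehicle array was dropped (0.0669 for replicate 1, 0.108 for replicate 2), and so did CHEK1 (0.0842 and 0.0948). CHEK2 passed under every alternative tried, with adjusted p up to 0.0491.

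**Figure D2:**
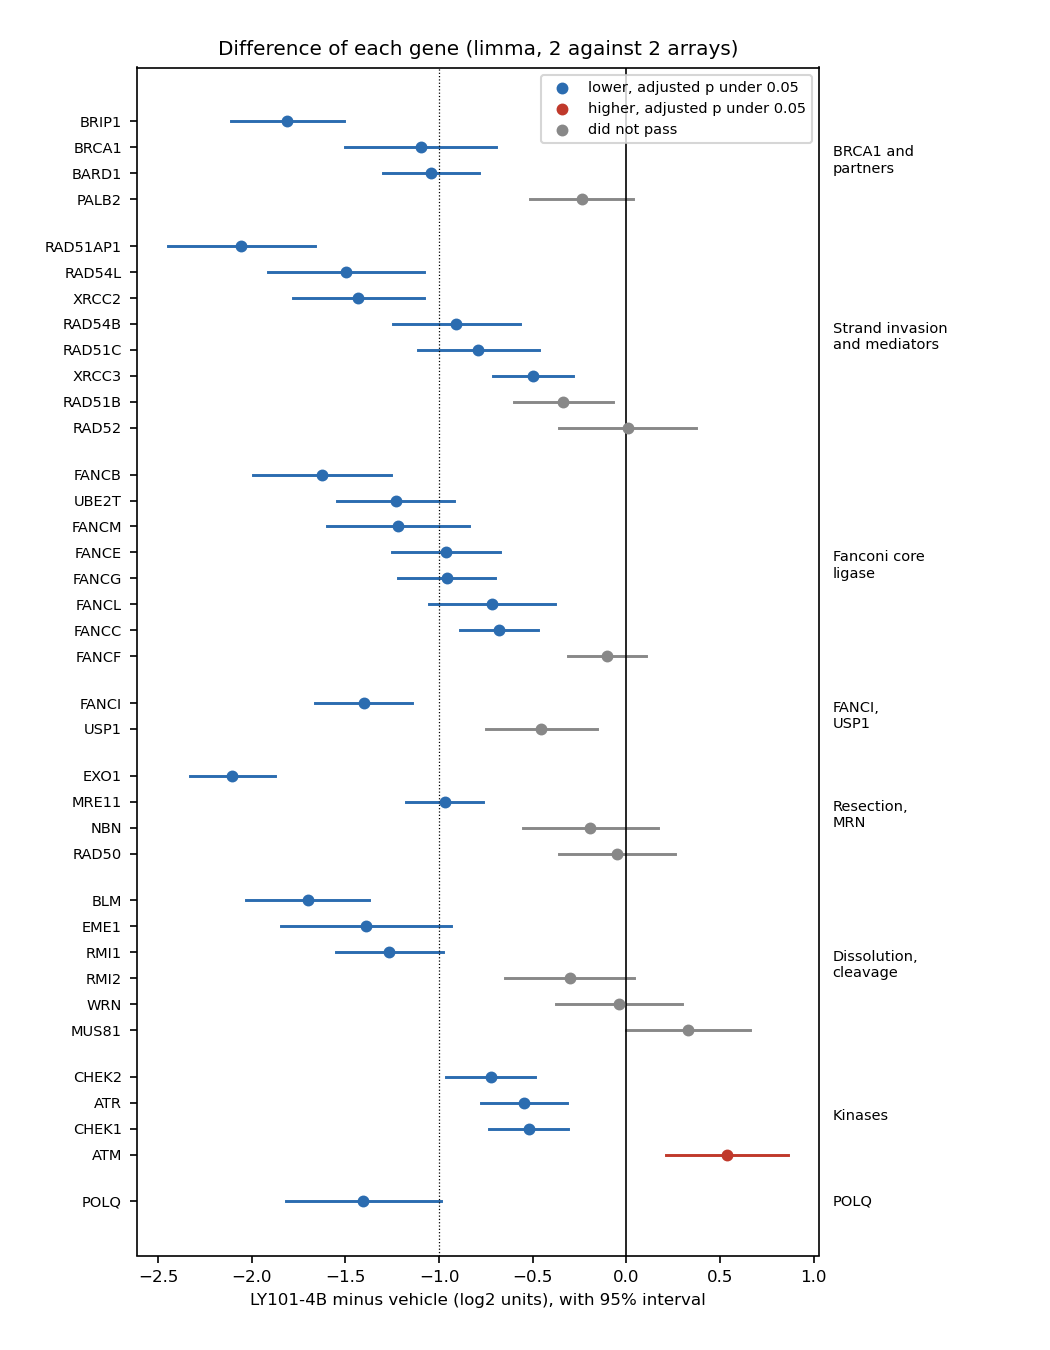
Difference between LY101-4B and vehicle (x axis, log2 units) for each gene, with the 95% interval of limma's moderated test as a bar; blue genes were called lower, the red gene higher and grey genes did not pass, and the dotted line marks a 2-fold fall. EXO1 at -2.10 and RAD51AP1 at -2.06 lie farthest left, and ATM at 0.54 is the gene called higher.

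The changes of linked genes were set side by side in 25 pairs, listed with their values known: partners in a complex, genes of one reaction or signalling step, and relatives such as BLM and WRN or ATM and ATR. The gap between the 2 log2 values did not overlap between vehicle and LY101-4B in 23 pairs. For single genes, the groups did not overlap, in either direction, in 58% of all genes, and the share for gaps between other genes was not computed. The other 2 pairs were BRCA1 with BARD1 and ATR with CHEK1. With 2 arrays against 2, an exact two-sided permutation test of a single gap cannot go below p = 0.333, so these gaps are given as descriptions.

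The 2 treated arrays differed in a common direction. LY101-4B replicate 2 lay above LY101-4B replicate 1 in 35 of 37 genes, by a median of 0.26 log2 units, against 58.3% of all genes. The exceptions were XRCC3 and FANCC. Against the vehicle mean, the median of the 37 genes was -0.98 on replicate 1 and -0.78 on replicate 2. Vehicle replicate 2 likewise lay above vehicle replicate 1 in 29 of 37 genes, against 49.6% of all genes, by a median of 0.11. For the genes called, the difference between groups was larger than these gaps. The test that called them weighs that difference against a variance taken from these gaps and from all probe sets together. That the difference exceeded the gaps was thus largely set by the rule. What set the replicates apart was not tested.

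**Figure D3:**
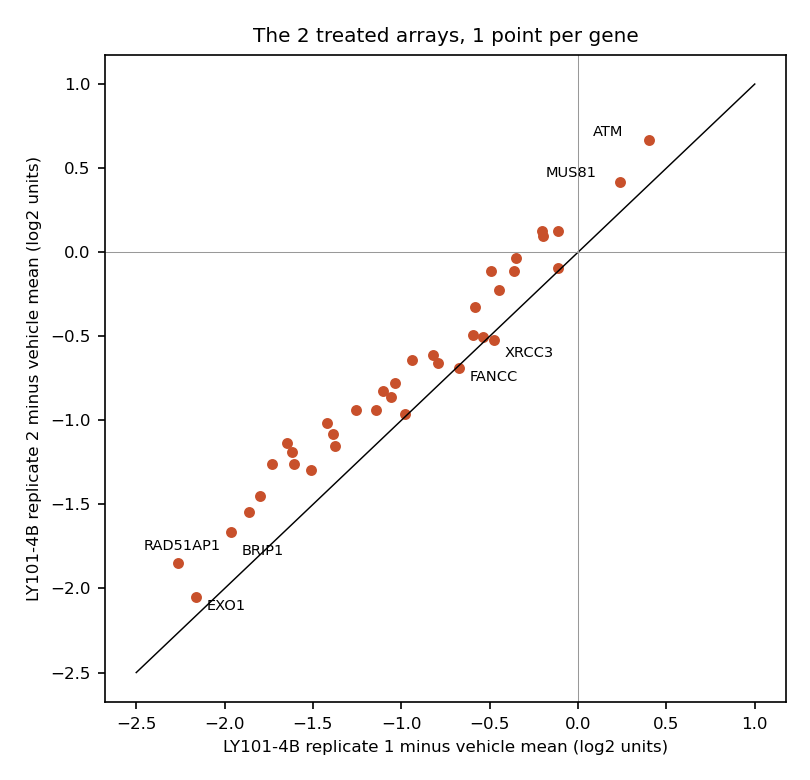
Value on LY101-4B replicate 2 minus the vehicle mean (y axis) against the same for LY101-4B replicate 1 (x axis), in log2 units, with 1 point per gene and the diagonal marking equal values. Of the 37 points, 35 lie above the diagonal, and XRCC3 and FANCC lie below it.

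Other genes of the same pathways were taken from lists of partners. These lists, and the end joining and proliferation lists below, were chosen with earlier results of these data known. Of 58 measured partners, 25 fell (43.1%), 2 rose (3.45%) and 31 did not pass, with a median of -0.33 log2 units. Among all 18417 genes, 10.7% were called lower and 8.88% higher, so rises were no more common here than elsewhere. Among recombination partners 8 of 22 fell, led by FIGNL1, a recombination ATPase (-1.63), the resection nuclease DNA2 (-1.55), the fork repair factor MMS22L (-1.45) and the helicase MCM8 (-1.23), while SWI5, a recombination cofactor, rose by 0.66. Among Fanconi partners 4 of 10 fell and 6 did not pass. Those that fell were ATAD5, which unloads PCNA (-1.76), the ligase RFWD3 (-0.89), CENPX (-0.64) and FAAP24 (-0.63). Among 26 checkpoint and chromatin signalling partners 13 fell and 1 rose. CLSPN, the adaptor between ATR and CHEK1, differed by -2.93 log2 units (-2.39 by its dimmer probe set), the phosphatase CDC25A by -1.32, and the fork protection pair TIMELESS and TIPIN by -1.24 and -1.18. BABAM2, of the BRCA1-A complex, rose by 0.57. Without vehicle replicate 1 the 3 counts of falls were 6, 2 and 8, and without vehicle replicate 2 they were 5, 3 and 7. SWI5 lost its call without vehicle replicate 2, and BABAM2 without either vehicle array.

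Genes of non-homologous end joining and its alternative form act to rejoin breaks without a template. Of 12, 7 fell (58.3%) and 1 rose (8.33%), with a median of -0.38 log2 units. Among all genes 10.7% were called lower and 8.88% higher, so the share of rises was near that of all genes. PARP1 (-0.996), XRCC4 (-0.79), XRCC5 (-0.54) and LIG3 (-0.53) fell most, and the ligase gene LIG4 rose by 0.49. Only 2 falls were called without either vehicle array, and 4 without LY101-4B replicate 1, and LIG4 lost its call when any array other than LY101-4B replicate 1 was left out, with median centring and over all rows of the table. Whether the recombination genes differ from these lists was not tested. Genes that mark dividing cells moved with the result: all 12 of a proliferation list fell, with a median of -1.51 log2 units, from -2.13 for MCM2 to -0.65 for CCNB1. Their part in the result was not tested.

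**Figure D4:**
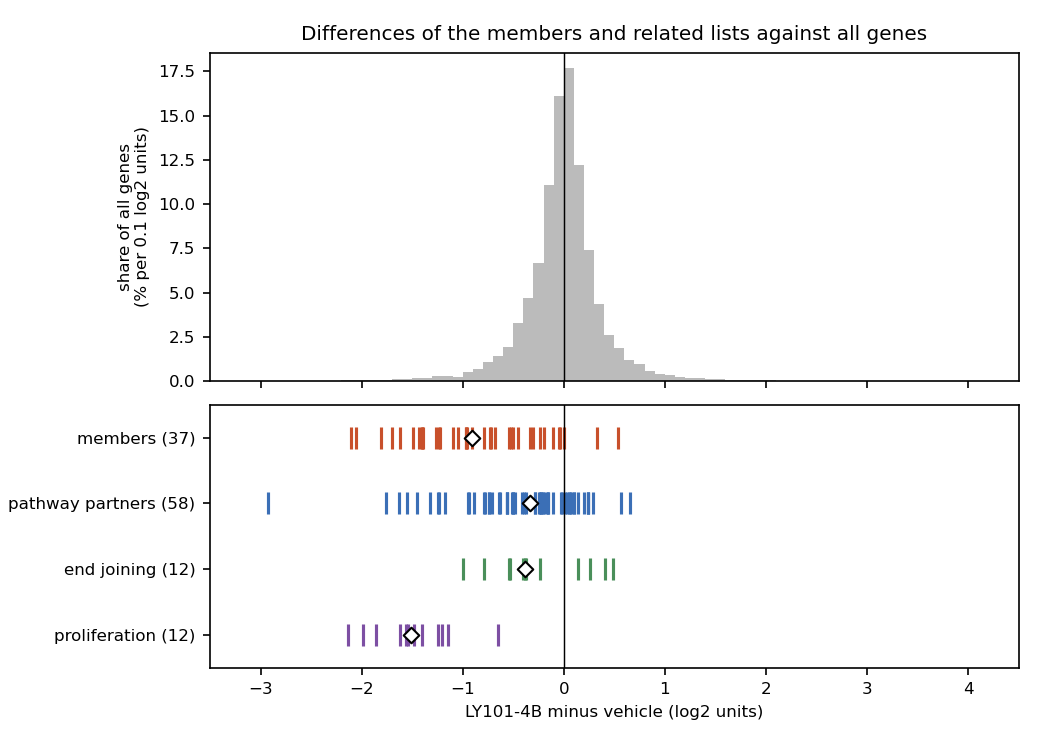
Top, share of all 18417 genes (y axis, percent per bin) by their difference between LY101-4B and vehicle (x axis, log2 units); bottom, the same difference for each gene of 4 lists, with a diamond at the list's median. The medians lie at -0.91 for the 37 genes, -0.33 for 58 pathway partners, -0.38 for 12 end joining genes and -1.51 for 12 proliferation genes.

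The arrays were alike within groups, with r = 0.997 between vehicle and 0.994 between LY101-4B arrays over the tested probe sets and 0.978 to 0.981 between groups. Array medians ranged from 5.88 to 5.97 log2 units. No recombination, Fanconi or kinase gene lay below its array's median in vehicle, and 5 did with LY101-4B on replicate 1 (BRIP1, RAD54L, RAD54B, FANCM and EME1). Of the 5 epithelial markers checked against the label, KRT8 fell from a mean of 12.8 to 11.9 log2 units and KRT18 from 12.9 to 12.4, KRT19 lay near 9.2 in vehicle, and EPCAM (up to 4.12) and CDH1 (up to 4.63) were below every array median. Of the 3 mesenchymal markers, the filament gene VIM lay between 12.5 and 12.7 and the transcription factor gene ZEB1 between 7.75 and 7.88, while the matrix gene FN1 (up to 4.44) was below every array median, and none passed the test. Among markers of other cells, PTPRC and CD3E of blood (up to 3.56 and 5.15), PECAM1 of vessels (up to 4.90) and PRSS1 and GCG of pancreas (up to 4.46 and 3.96) were below every array median, CPA1 and CELA3A lay between 5.73 and 6.16, and CD68 between 7.93 and 8.21. None of these other markers passed the test. Of the 3 fibroblast genes, COL1A2 rose by 0.47 log2 units from a mean of 9.89, while COL1A1 (0.07) and DCN (0.13, at 3.62 or below) did not pass. The part of KRT8, KRT18 and COL1A2 in the result was not tested.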

How the data were processed

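Total RNA of 4 MiaPaCa2 samples was hybridised to Human Gene 1.0 ST arrays, per the labels' protocols. The deposited table holds log2 values per probe set made by RMA, per the submitters' processing notes; the sources used here do not give its version, probe set definitions or filters. Since RMA forces a like distribution on all arrays, a shift of most transcripts in one direction would not be seen. Of 33297 rows, 19460 had 1 gene symbol, 1754 several and 12083 none; 0 symbols needed updating, and 0 value columns were left unmapped.

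The 21214 probe sets with a symbol were fitted with limma 3.58.1 in R 4.3.3 (lmFit, eBayes; treatment as the only term; 2 residual degrees of freedom, prior 3.75), with 2-sided p-values adjusted by Benjamini-Hochberg over all of them. A gene was represented by its brightest single-symbol probe set; each of the 37 genes had 1. Intervals are limma's moderated 95% intervals. The fit was tested on simulated data. Array number limits the precision.

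The members, lists, linked pairs and naming rule were chosen with earlier results of these data known. By that rule all members were accounted for, and those past the threshold by 2-fold, risers and kinases were given by array. Up to 4 called genes per direction were named from each other list, and RECQL, RECQL4 and RECQL5 besides. Partner lists held 63 genes. Alternatives covered scaling, rows tested, dim probe sets, the variance prior, the replicate block and each array left out.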

Additional observations from a re-analysis of the deposited data

How the results depend on the processing

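Of 13 alternatives, averaging the probe sets of a gene could not move a member, since each member has 1, and the brighter probe sets leave out RAD54B, FANCM and EME1. In the alternatives that gave a member a value, 21 of the 27 calls kept their side of the threshold; RAD51C, XRCC3, FANCL, ATM, ATR and CHEK1 lost it in at least 1. With each array left out in turn, the members called lower numbered 21 to 29, those called higher 0 to 1, and the median of the members ranged from -0.98 to -0.78 log2 units. Over all tested probe sets the calls then ranged from 811 to 2467 lower and from 755 to 1899 higher, and over all rows of the table they were 1271 and 1162. The rise of ATM, the member called higher, left 0 members higher with median centring or over all rows of the table, where more tests share the adjustment. Among the brighter probe sets (mean above the median) the members' median was -0.76 and that of the dissolution and cleavage genes -0.30, with these 3 genes left out. The median of the kinases was -0.60 with median centring and -0.47 under cyclic loess. With the strict motif 2 members matched. Signs turned for 3 genes near 0: RAD52 (0.01; -0.057 with median centring, and -0.16 to 0.18 with an array left out), RAD50 (-0.05; 0.032 under cyclic loess, and -0.20 to 0.10 with an array left out) and WRN (-0.04; -0.20 to 0.12 with an array left out). The cause of these shifts was not tested.

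With the replicate number as a block, 28 members were called, among them all 27 of the fit without it, 27 lower and 1 higher. Over all tested probe sets that fit called 2312 lower and 2024 higher. It left 1 residual degree of freedom, against 2 without the block, so its calls lean more on the variance prior. Differences between replicates 2 and 1 correlated between the groups at r = 0.116 over all tested probe sets and at r = 0.505 over the 37 members, and the labels give no pairing beyond the number.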
